A study of Mus musculus with 6 samples.

Results

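The genes described here carry glucose and fructose through the liver: 52 gene names covering sugar uptake, glycolysis, gluconeogenesis, glycogen and the pentose phosphate pathway, chosen by name and not by any measured value. All 52 names were found among the 31950 genes of the deposited table, in 53 rows, because Aldoa is listed under 2 identifiers. Of the 53 rows, 50 averaged at least 0.5 FPKM over the 6 livers and were tested, and Pfkp, Fbp2 and the second Aldoa row were not. The study compared livers of 3 WT and 3 β-cateninΔ(ex3)/+ mice (mutant) by RNA sequencing, 1 library per liver. All 6 mice are labelled C57BL/6 and 8 weeks old. The mutant mice carry 1 Ctnnb1 allele from which exon 3 is deleted, which removes the phosphorylation sites that mark β-catenin for destruction. In the study's methods, livers of this name came from mice in which tamoxifen turned on a Cre recombinase driven by the albumin promoter, so that the deletion was made in hepatocytes. Those methods do not say which Cre was used for the sequenced livers, whether the WT mice carried a Cre or received tamoxifen, or the sex of the mice. The sequenced livers still hold their non-hepatocyte cells.

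The liver both consumes and makes glucose. After a meal hexokinases trap glucose as glucose 6-phosphate, which is stored as glycogen, burnt through glycolysis to pyruvate, or sent into the pentose phosphate pathway for NADPH and ribose. In fasting, phosphorylase releases glucose from glycogen and gluconeogenesis rebuilds it from lactate and amino acids through pyruvate carboxylase, phosphoenolpyruvate carboxykinase, fructose bisphosphatase and glucose 6-phosphatase, the last of which lets free glucose leave the cell. In the liver lobule, gluconeogenesis is a task of the periportal hepatocytes, and Wnt/β-catenin signalling marks the pericentral ones.

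The values are FPKM, fragments of a gene scaled to transcript length and library size. After 1 FPKM was added and log2 taken, limma was applied to the 13243 genes that averaged at least 0.5 FPKM. Ctnnb1 itself had 25.9, 28.0 and 27.3 FPKM in WT and 25.4, 25.2 and 25.04 FPKM in mutant livers, a value per gene from which the loss of 1 exon cannot be read. Of 10 pericentral genes that include known β-catenin targets such as Glul and Axin2, 9 lay above all WT livers in all mutant livers, with summed levels of 1734 to 1946 FPKM in WT and 3101 to 3138 FPKM in mutant livers. Against the common label of 8 weeks, 8 genes of the fetal and newborn liver that are nearly silent later, among them H19, Igf2 and Afp, were all lower in the mutant livers, summing to 3858 to 3924 FPKM in the WT livers and 7.08 to 7.94 FPKM in the mutant livers. Of 10 genes of the mature liver, several of them male-biased, 9 were higher in the mutant livers, with sums of 197 to 202 FPKM in WT and 1591 to 1649 FPKM in mutant livers. Xist had 21.2 FPKM (mean) in WT and 0.00913 FPKM in mutant livers, and 4 Y-linked genes summed to at most 0.0428 FPKM in WT and to 16.3 to 17.2 FPKM in mutant livers. The WT livers carried the signal of female mice and the mutant livers that of male mice, so every difference described here could come with genotype, with sex or with the state shown by the young-liver genes, and these cannot be told apart. Hepatocyte genes such as Alb and Apoa1 dominated both groups, with 10 genes summing to 94388 to 97456 FPKM in WT and 47254 to 47944 FPKM in mutant livers. They did not all move with that sum, since 7 were below and 2, Hnf4a and Apob, above all WT livers. Hnf4a had 57.6 FPKM (mean) in WT and 125 FPKM in mutant livers. Erythroid genes summed to 3327 to 3669 FPKM in WT and 1816 to 1880 FPKM in mutant livers, and neutrophil genes to 343 to 367 FPKM and 48.9 to 53.3 FPKM. In tissue RNA, fewer cells of a type and less RNA per cell cannot be told apart.

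In the mutant livers 5 of 8 tested gluconeogenesis members passed the adjusted p downward and 1 upward, 6 of 8 members of the lower steps of glycolysis and all 4 of the pentose phosphate pathway passed upward, and the genes of glycogen split in both directions. With an adjusted p under 0.05 and a change of at least 2-fold, 8 of 50 tested member rows were higher and 4 were lower. Over all tested genes these thresholds called 12.7%, with 8.17% higher and 4.52% lower, against 24.0% of the members. The higher members were Ppp1r3b, Gbe1, Taldo1, Tkt, Hk3, Eno1, Tpi1 and Pdha1, and the lower ones were G6pc, Pygb, Pck1 and Gys2. At any fold change, 36 members passed the adjusted p, 22 up and 14 down, which is 72.0% of the members beside 57.0% of all tested genes. The WT and mutant livers did not overlap for 39 members, 78.0%, beside 66.0% of all tested genes. The median absolute log2 fold change was 0.62 among the members and 0.35 among all tested genes. Members ranged from -2.05 for G6pc to 2.21 for Ppp1r3b. Adding 1 FPKM damps the changes of low genes, and the members were not matched to the other genes for level. With 0.1 FPKM added instead, 10 members were called higher and 6 lower, beside 1706 and 999 of all tested genes.

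The balance of the 2 directions depended on how the livers were scaled. In the deposited FPKM the median gene had a log2 fold change of 0.14. Dividing the livers by median-ratio size factors brought that median to 0.0081, and 5 members were then higher and 8 lower, while quantile normalization gave 3 higher and 8 lower. Over all genes the share of calls in the higher direction went from 64.4% to 53.1% and 49.5%. Ppp1r3b, Gbe1 and Taldo1 were called higher, and G6pc, Pygb, Pck1 and Gys2 lower, under all 3 scalings.

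**Figure D1:**
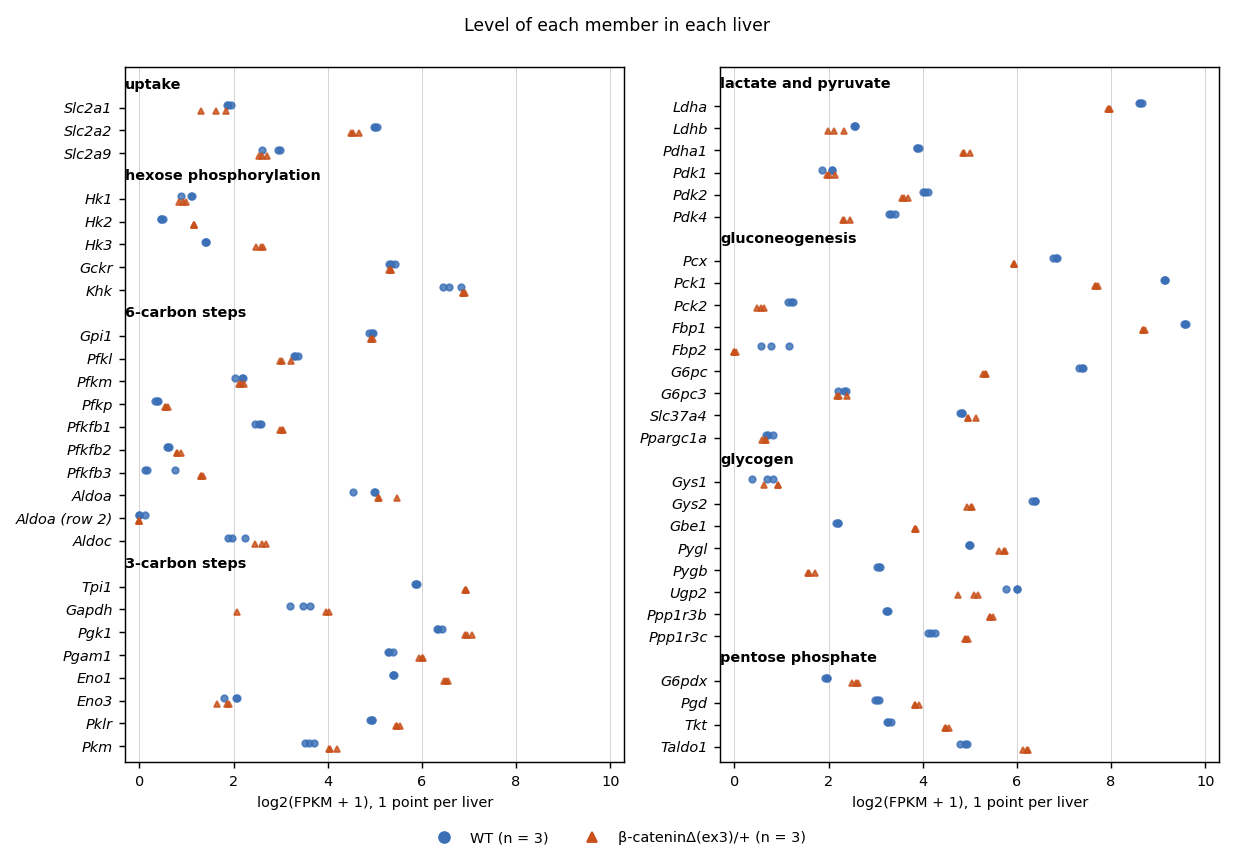
Level of all 53 member rows in each liver as log2(FPKM + 1), with WT livers as circles and mutant livers as triangles, grouped by role. The highest levels were those of Fbp1, Pck1 and Ldha in WT livers, and the triangles of G6pc, Pck1, Gys2 and Pygb lie left of the circles while those of Ppp1r3b, Gbe1, Tkt and Taldo1 lie right of them.

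**Figure D2:**
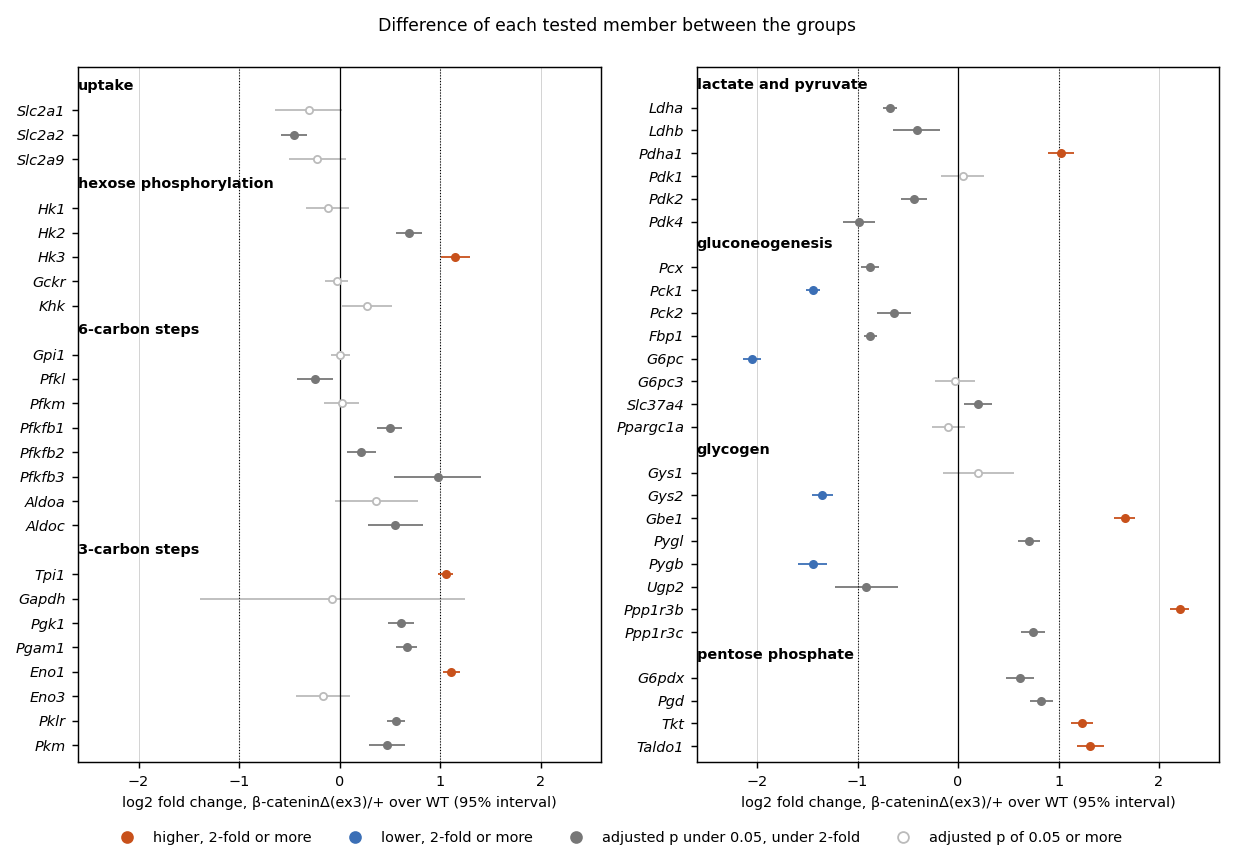
Log2 fold change of mutant over WT livers for the 50 tested member rows, with the 95% interval from limma as a bar and the 2-fold limits as dotted lines. Filled orange and blue points are the 8 higher and 4 lower members, and the interval of Gapdh is the widest.

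Gluconeogenesis held the highest levels and the deepest drop. Its 9 members summed to 1637, 1605 and 1641 FPKM in WT and 761, 753 and 747 FPKM in mutant livers, 0.463 times the WT sum, and 0.405 times with median-ratio scaling. Of the 8 that were tested, 5 passed the adjusted p downward, 2 of them past 2-fold, and 1 upward. Among all tested genes 57.0% passed it in either direction, and 12.7% were also past 2-fold. A list of 10 other periportal genes, such as Ass1 and Cyp2f2, stood at 756 to 779 FPKM in sum in WT and 1616 to 1663 FPKM in mutant livers, 6 of them above and 2 below all WT livers.

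G6pc, the catalytic subunit of the glucose 6-phosphatase of liver and kidney (ENSMUSG00000078650, chr11:101367561-101377903), had 165, 169 and 159 FPKM in WT and 39.4, 38.0 and 39.2 FPKM in mutant livers. Every mutant liver was far below every WT liver, by 4.22-fold in the means (log2 fold change -2.05, standard error 0.037, adjusted p = 2.31e-07). Pck1, the cytosolic phosphoenolpyruvate carboxykinase (ENSMUSG00000027513, chr2:173153048-173159273), had 562, 553 and 566 FPKM in WT and 211, 201 and 203 FPKM in mutant livers. The groups were again apart, with means 2.73-fold lower in the mutant (log2 fold change -1.45, standard error 0.029, adjusted p = 3.67e-07).

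The RefSeq promoters of these genes, the most reduced members for which RefSeq gave a promoter sequence apart from Pygb, are shown for the 250 bases before the start on build GRCm38.p6, plus strand. Capitals mark exact matches to the motifs searched, which are TCF/LEF, E-box, CRE, forkhead and hypoxia motifs. G6pc lies at chr11:101367466-101367715 and Pck1 at chr2:173152823-173153072.
G6pc: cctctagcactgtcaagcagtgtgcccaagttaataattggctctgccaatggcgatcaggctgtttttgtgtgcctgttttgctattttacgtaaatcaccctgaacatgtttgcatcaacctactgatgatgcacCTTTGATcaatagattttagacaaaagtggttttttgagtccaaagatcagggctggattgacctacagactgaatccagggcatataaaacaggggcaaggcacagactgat
Pck1: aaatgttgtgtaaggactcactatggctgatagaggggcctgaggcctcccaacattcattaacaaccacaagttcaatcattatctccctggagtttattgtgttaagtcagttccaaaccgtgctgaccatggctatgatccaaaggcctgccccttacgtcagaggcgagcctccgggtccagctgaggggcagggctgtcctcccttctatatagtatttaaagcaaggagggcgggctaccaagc
The GENCODE M21 gene models, on the same build, begin 155 bases earlier for G6pc and 25 bases earlier for Pck1.

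Fbp1, the liver fructose bisphosphatase, was the member with the highest level, at 762, 743 and 768 FPKM in WT and 411, 419 and 409 FPKM in mutant livers. Its fall passed the adjusted p but not 2-fold (log2 fold change -0.87, standard error 0.025, adjusted p = 1.65e-06), and with median-ratio or quantile scaling it passed both, at -1.07 and -1.05. Pcx, the mitochondrial pyruvate carboxylase that opens the pathway, had 112, 107 and 115 FPKM in WT and 60.2, 60.1 and 60.4 FPKM in mutant livers. Pcx was likewise short of 2-fold in the deposited scale (log2 fold change -0.88, standard error 0.036, adjusted p = 6.9e-06) and past it with both other scalings, at -1.07 and -1.10. The 4 enzymes of glucose production with the highest levels, Fbp1, Pck1, G6pc and Pcx, were thus all lower in all mutant livers under all 3 scalings.

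The less abundant partners did not follow a single direction. Pck2, the mitochondrial carboxykinase, had 1.37, 1.28 and 1.21 FPKM in WT and 0.472, 0.391 and 0.554 FPKM in mutant livers (log2 fold change -0.64, standard error 0.069, adjusted p = 0.000474). G6pc3, the widely expressed glucose 6-phosphatase subunit, had 4.15, 3.62 and 3.99 FPKM in WT and 4.27, 3.50 and 3.67 FPKM in mutant livers. The G6pc3 values overlapped, and its log2 fold change of -0.034 had a standard error of 0.081. Slc37a4, the transporter that brings glucose 6-phosphate to G6pc in the endoplasmic reticulum, was at 27.3 ± 0.433 FPKM (SD, n = 3) in WT and 31.5 ± 2.17 FPKM in mutant livers (log2 fold change 0.20, standard error 0.056, adjusted p = 0.0256). That small upward difference was lost with median-ratio scaling, at 0.0081, turned to -0.097 with quantile normalization, and missed the adjusted p when any 1 WT liver was left out, at 0.0528 to 0.0759. Ppargc1a, a coactivator of gluconeogenic transcription, was at 0.663 ± 0.0903 FPKM and 0.551 ± 0.0368 FPKM, with overlapping livers and an adjusted p of 0.246.

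Fbp2, the fructose bisphosphatase of muscle, averaged under 0.5 FPKM over the 6 livers and was not tested. It had 1.22, 0.474 and 0.708 FPKM in WT livers and was listed at 0.0277, 0 and 0 FPKM in mutant livers. All 3 WT livers were above all 3 mutant livers. The muscle list was near 0 in both groups, with 7 genes summing to at most 0.0710 FPKM in WT and at most 0.205 FPKM in mutant livers, and with 5 of the 7 at 0 in all WT livers.

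Glycogen genes differed in both directions. Their 8 members summed to overlapping totals, 209 ± 8.61 FPKM (SD, n = 3) in WT and 202 ± 2.91 FPKM in mutant livers, and the mutant total was 0.845 times that of WT with median-ratio scaling. Individually, 7 of the 8 passed the adjusted p, 4 upward and 3 downward, and 2 in each direction passed 2-fold. Beside these stand 57.0% of all tested genes at any fold change and 12.7% past 2-fold, in either direction.

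Ppp1r3b (ENSMUSG00000046794, chr8:35375739-35388139), the liver subunit that brings protein phosphatase to glycogen, where it activates glycogen synthase, had 8.31, 8.50 and 8.57 FPKM in WT and 43.8, 42.0 and 42.2 FPKM in mutant livers. It showed the largest increase of all members, 5.05-fold in the means, with no overlap (log2 fold change 2.21, standard error 0.039, adjusted p = 2.11e-07). Gbe1 (ENSMUSG00000022707, chr16:70313949-70569716), the branching enzyme, had 3.58, 3.599 and 3.43 FPKM in WT and 13.3, 13.2 and 13.4 FPKM in mutant livers. The Gbe1 livers hardly varied within a group, and the means differed 3.76-fold (log2 fold change 1.66, standard error 0.043, adjusted p = 1.08e-06).

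Gys2 (ENSMUSG00000030244, chr6:142422613-142473109), the liver glycogen synthase, went the other way, with 78.5, 82.1 and 82.0 FPKM in WT and 32.0, 29.7 and 31.6 FPKM in mutant livers. The mutant mean was 2.599-fold lower (log2 fold change -1.35, standard error 0.043, adjusted p = 2.52e-06), so the synthase and the phosphatase subunit that activates it differed in opposite directions in the same livers. Gys1, the synthase of muscle and most other tissues, had 0.756, 0.606 and 0.292 FPKM in WT and 0.545, 0.892 and 0.886 FPKM in mutant livers. Those values overlapped and did not pass the test (log2 fold change 0.20, standard error 0.14, adjusted p = 0.279).

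Pygl (ENSMUSG00000021069) and Pygb (ENSMUSG00000033059, chr2:150786735-150831758), the liver and brain forms of glycogen phosphorylase, which frees glucose units from glycogen, also differed in opposite directions. Pygl had 30.7, 30.6 and 31.2 FPKM in WT and 52.1, 52.5 and 48.2 FPKM in mutant livers (log2 fold change 0.71, standard error 0.045, adjusted p = 4.78e-05). Pygb had 7.42, 7.57 and 7.12 FPKM in WT and 2.01, 1.94 and 2.26 FPKM in mutant livers (log2 fold change -1.45, standard error 0.061, adjusted p = 7.91e-06). Every mutant liver was above the WT livers for Pygl and below them for Pygb.

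The RefSeq promoters of Gbe1 and Pygb are shown in the same way, as a pair of glycogen genes of opposite direction. Gbe1 lies at chr16:70313699-70313948 and Pygb at chr2:150786546-150786795, both on the plus strand.
Gbe1: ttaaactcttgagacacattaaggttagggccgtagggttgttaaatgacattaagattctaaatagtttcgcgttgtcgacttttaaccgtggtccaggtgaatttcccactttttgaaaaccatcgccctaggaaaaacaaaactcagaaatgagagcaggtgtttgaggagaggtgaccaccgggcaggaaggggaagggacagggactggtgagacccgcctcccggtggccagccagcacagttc
Pygb: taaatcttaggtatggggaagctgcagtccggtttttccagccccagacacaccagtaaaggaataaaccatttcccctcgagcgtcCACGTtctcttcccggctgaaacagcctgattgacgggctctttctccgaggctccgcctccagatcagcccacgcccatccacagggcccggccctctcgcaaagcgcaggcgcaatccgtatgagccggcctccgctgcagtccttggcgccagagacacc
The GENCODE M21 model of Gbe1 starts at the base after this window, as that of RefSeq does, and that of Pygb starts 61 bases earlier.

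Ppp1r3c, another glycogen-targeting subunit of the phosphatase, had 16.3, 18.1 and 17.1 FPKM in WT and 29.0, 29.0 and 30.2 FPKM in mutant livers, short of 2-fold (log2 fold change 0.74, standard error 0.050, adjusted p = 6.13e-05). Ugp2, which makes the UDP-glucose that glycogen synthase uses, was at 59.8 ± 5.75 FPKM in WT and 31.4 ± 4.80 FPKM in mutant livers (log2 fold change -0.91, standard error 0.13, adjusted p = 0.00146). With median-ratio or quantile scaling, or without mutant replicate 2, Ugp2 passed 2-fold, at -1.10, -1.20 and -1.003.

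The lower steps of glycolysis turn triose phosphates into pyruvate. Their 8 members summed to 274, 274 and 269 FPKM in WT and 475, 459 and 483 FPKM in mutant livers, 1.73 times the WT sum and 1.51 times with median-ratio scaling. Of the 8, 6 passed the adjusted p upward, Gapdh and Eno3 did not pass, and Pkm missed it with quantile normalization (log2 fold change 0.18, adjusted p = 0.117). The share of all tested genes that passed, in either direction, was 57.0%. Tpi1 (ENSMUSG00000023456, chr6:124810586-124814296), triosephosphate isomerase, had 56.8, 58.2 and 58.0 FPKM in WT and 122, 121 and 119.7 FPKM in mutant livers (log2 fold change 1.06, standard error 0.029, adjusted p = 1.4e-06). Eno1 (ENSMUSG00000063524, chr4:150236721-150248879), the main enolase outside muscle and neurons, had 41.0, 40.8 and 41.7 FPKM in WT and 88.1, 90.0 and 92.5 FPKM in mutant livers (log2 fold change 1.11, standard error 0.034, adjusted p = 2.04e-06). Both pairs of groups were far apart, and both genes dropped below 2-fold with median-ratio scaling, at 0.86 and 0.92, and with quantile normalization, at 0.81 and 0.85.

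Pgk1, phosphoglycerate kinase, had 84.9, 80.1 and 78.9 FPKM in WT and 123, 119 and 133 FPKM in mutant livers (log2 fold change 0.61, standard error 0.053, adjusted p = 0.000179). Pgam1, phosphoglycerate mutase, was at 39.1 ± 1.61 FPKM in WT and 62.6 ± 1.59 FPKM in mutant livers (log2 fold change 0.67, standard error 0.044, adjusted p = 5.26e-05). Both passed the adjusted p without reaching 2-fold. Pklr, the liver and red cell pyruvate kinase, had 28.7, 29.7 and 29.7 FPKM in WT and 45.1, 42.8 and 43.4 FPKM in mutant livers (log2 fold change 0.56, standard error 0.038, adjusted p = 6.23e-05). Pkm, the pyruvate kinase of most other tissues, had 10.5, 12.1 and 11.1 FPKM in WT and 15.5, 17.3 and 15.3 FPKM in mutant livers (log2 fold change 0.48, standard error 0.073, adjusted p = 0.0022). Eno3, the muscle enolase, had 3.14, 2.46 and 3.18 FPKM in WT and 2.61, 2.12 and 2.75 FPKM in mutant livers. Its livers overlapped (log2 fold change -0.17, standard error 0.11, adjusted p = 0.235), and it passed the adjusted p downward with median-ratio and quantile scaling, at -0.31 and -0.33.

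Gapdh, the dehydrogenase of the middle of the pathway and a common reference gene, was singled out after its values were seen, because 1 mutant liver stood apart. It had 11.3, 10.1 and 8.14 FPKM in WT and 14.6, 3.21 and 15.4 FPKM in mutant livers. Mutant replicate 2 was below all WT livers and the other mutant livers were above them (log2 fold change -0.072, standard error 0.54, adjusted p = 0.921), and without that liver the log2 fold change was 0.57 (adjusted p = 0.0215). These levels belong to the Gapdh locus alone, and the mouse genome holds many near-identical processed copies. A search of GENCODE M21 transcripts found 77 genes elsewhere with a stretch of at least 300 bases at 95% identity or more to Gapdh, 20 of them above a mean of 1 FPKM. The 5 most abundant were Gm7336, Gm5559, Gm12033, Gm2606 and Gm12070, with 50.2 to 74.0 FPKM in WT and 79.1 to 107 FPKM in mutant livers. Their transcripts covered all 1002 coding bases of Gapdh, with 0 mismatches in Gm7336 and 1 mismatch in each of the other 4.

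To show how close the copies are, coding bases 355 to 414 of Gapdh, counted from 1 at the start codon (chr6:125162948-125163007, minus strand), are set beside the same stretch of Gm5559 (chr5:95862068-95862127, plus strand), both from GENCODE M21 on GRCm38. The capital marks the only base that differs over the whole coding sequence, T385A, with the Gapdh base first.
Gapdh: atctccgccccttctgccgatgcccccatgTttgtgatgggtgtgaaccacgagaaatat
Gm5559: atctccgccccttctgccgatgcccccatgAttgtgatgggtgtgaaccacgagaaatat
Within the coding sequence, the letters of a read that misses this base match both transcripts equally well.

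Gapdh and its copies together had 414, 421 and 429 FPKM in WT and 588, 588 and 606 FPKM in mutant livers, with no overlap and no liver standing apart. The Gapdh row held 2.34% of that sum in WT and 1.86% in mutant livers. With the copies added to the member, an alternative chosen after the data had been seen, the log2 fold change was 0.49 (standard error 0.027, adjusted p = 2.39e-05). The copy Gapdh-ps15 lies on the Y chromosome, and it was listed at 3.17 to 3.77 FPKM in the WT livers, where the Y-linked genes were near 0. Eno1 had 3 such copies, and its sum with them was 58.97, 56.8 and 57.9 FPKM in WT and 137, 127 and 136 FPKM in mutant livers, with a log2 fold change of 1.19. Tpi1, Pgk1 and Pgam1 came to 1.10, 0.68 and 0.78 with their copies, so their calls did not differ from those of the rows alone. How the deposited values divide reads among such copies is not given in the sources used here.

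**Figure D3:**
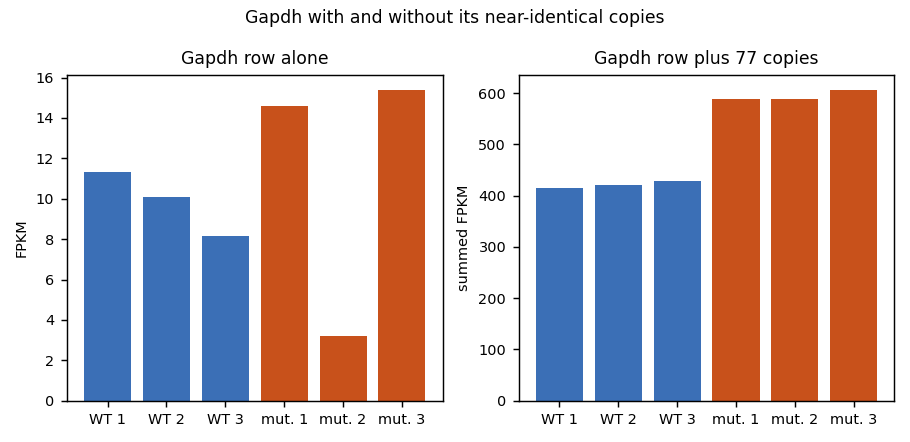
FPKM of the Gapdh row alone (left) and summed with its 77 near-identical copies (right) in each liver, blue for WT and orange for mutant replicates. The row alone drops to 3.21 FPKM in mutant replicate 2, whereas the sums lie at 414 to 429 FPKM in WT and 588 to 606 FPKM in mutant livers.

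The pentose phosphate members moved together. All 4 passed the adjusted p upward under all 3 scalings, and their sum was 47.4, 45.4 and 48.7 FPKM in WT and 115, 109 and 113 FPKM in mutant livers, 2.39 times the WT sum. Over all tested genes 57.0% passed in either direction, with 4952 of 13243 upward. Tested genes of the pathway outside the members were mixed. Rpe, H6pd and Shpk passed upward, with log2 fold changes of 0.68, 0.69 and 0.46. Pgls and Rpia overlapped and did not pass, at 0.19 and 0.038 (adjusted p = 0.581 and 0.709). Taldo1 (ENSMUSG00000025503, chr7:141392199-141402968), transaldolase, had 28.7, 26.9 and 29.8 FPKM in WT and 74.4, 68.8 and 73.6 FPKM in mutant livers (log2 fold change 1.32, standard error 0.054, adjusted p = 7e-06). Tkt (ENSMUSG00000021957, chr14:30548359-30574720), transketolase, which with transaldolase returns pentoses to glycolysis, had 9.002, 8.43 and 8.58 FPKM in WT and 22.5, 21.5 and 21.2 FPKM in mutant livers (log2 fold change 1.23, standard error 0.046, adjusted p = 4.91e-06). Both groups were apart for each gene, and Tkt fell short of 2-fold with quantile normalization, at 0.95. The oxidative enzymes that make NADPH, G6pdx and Pgd, were at 2.86 ± 0.0808 and 7.20 ± 0.225 FPKM in WT and at 4.92 ± 0.255 and 13.6 ± 0.493 FPKM in mutant livers. Their log2 fold changes of 0.62 and 0.83 passed the adjusted p (0.000216 and 3.28e-05) below 2-fold.

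**Figure D4:**
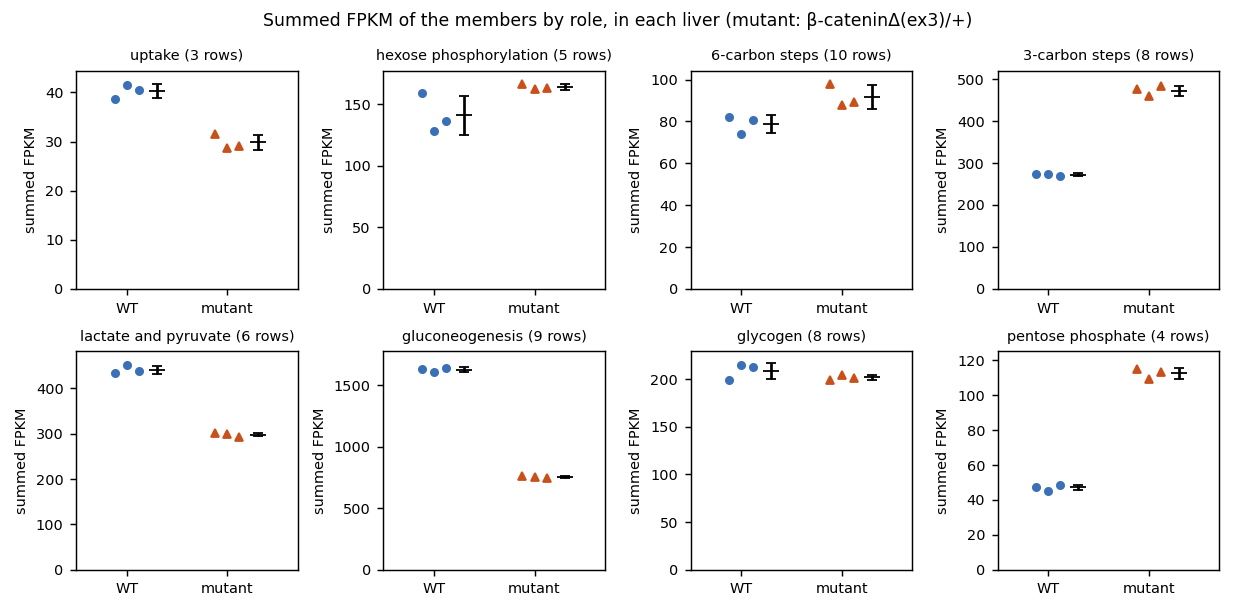
Summed FPKM of the members of each role in each liver, with circles for WT, triangles for mutant livers and a bar for the mean and SD of 3 livers. Gluconeogenesis falls from 1628 to 754 FPKM and the pentose phosphate group rises from 47.2 to 113 FPKM, while the sums for hexose phosphorylation and the 6-carbon steps, 1.16 times WT here, are 1.02 times WT with median-ratio scaling.

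Sugar entry and the first phosphorylation showed smaller differences at the high-level genes. Slc2a2, the main glucose transporter of hepatocytes, had 30.7, 32.0 and 31.2 FPKM in WT and 24.2, 21.6 and 22.2 FPKM in mutant livers (log2 fold change -0.45, standard error 0.053, adjusted p = 0.000674). Slc2a1, the widely expressed transporter, had 2.88, 2.64 and 2.68 FPKM in WT and 2.59, 2.08 and 1.48 FPKM in mutant livers. Slc2a1 did not pass the test (log2 fold change -0.31, standard error 0.14, adjusted p = 0.102), whereas it passed downward with median-ratio and quantile scaling, at -0.44 and -0.46, and without mutant replicate 1, at -0.43. Slc2a9, a urate and hexose transporter, overlapped between groups, with a log2 fold change of -0.22 and an adjusted p of 0.149. It passed downward with median-ratio scaling, at -0.39, quantile scaling, at -0.43, and without WT replicate 1, at -0.34.

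Among the hexokinases Hk3 (ENSMUSG00000025877, chr13:55005985-55021385), the form found mainly in myeloid cells, had 1.67, 1.61 and 1.69 FPKM in WT and 4.56, 5.19 and 4.98 FPKM in mutant livers. The mutant mean was 2.97-fold higher (log2 fold change 1.15, standard error 0.060, adjusted p = 2.03e-05), or 0.998 on the log2 scale, just under 2-fold, with quantile normalization. Kupffer cell genes moved the same way, 7 of 8 without overlap, with summed levels of 220.2 to 228 FPKM in WT and 505 to 514 FPKM in mutant livers, none of them at 0. Neutrophil genes moved the opposite way in 7 of 8, and the part of either cell type in the Hk3 result was not tested. Hk2, the insulin-responsive hexokinase of muscle and fat, had 0.366, 0.415 and 0.383 FPKM in WT and 1.23, 1.24 and 1.24 FPKM in mutant livers. Its means differed 3.19-fold, yet the value on the log2(FPKM + 1) scale was 0.69 (standard error 0.054, adjusted p = 0.000115), and a pseudocount of 0.1 gave 1.46. Fat genes were also higher in mutant livers, 6 of 6 without overlap and 26.3 to 28.2 FPKM in sum beside 8.06 to 8.52 FPKM in WT livers, where Retn was at 0. The part of fat tissue in the Hk2 result was not tested.

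Hk1, the hexokinase of most tissues, had 1.16, 0.854 and 1.15 FPKM in WT and 0.897, 0.794 and 0.979 FPKM in mutant livers, with overlap (log2 fold change -0.12, standard error 0.086, adjusted p = 0.277). Gckr, the nuclear protein that holds the liver hexokinase inactive, was at 40.05 ± 1.96 FPKM in WT and 39.2 ± 0.655 FPKM in mutant livers. Its log2 fold change of -0.028 (adjusted p = 0.629) became -0.22 and -0.28, past the adjusted p, with median-ratio and quantile scaling. Khk, the fructokinase, had 114, 85.9 and 94.6 FPKM in WT and 120.4, 117 and 116 FPKM in mutant livers. All mutant livers were above the WT livers, though the test was just missed (log2 fold change 0.27, standard error 0.10, adjusted p = 0.0593), and without WT replicate 1 the adjusted p was 0.00374. With median-ratio and quantile scaling its log2 fold change shrank to 0.080 and 0.065 (adjusted p = 0.528 and 0.576).

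The 6-carbon steps held no member past 2-fold on the log2(FPKM + 1) scale. Gpi1, glucose phosphate isomerase, was at 29.5 ± 0.818 FPKM in WT and 29.6 ± 0.598 FPKM in mutant livers, a log2 fold change of 0.0071 that became -0.18 and -0.28, past the adjusted p, with median-ratio and quantile scaling. Of the phosphofructokinases, which commit sugar to glycolysis, the liver form Pfkl had 9.37, 8.67 and 8.86 FPKM in WT and 6.92, 8.27 and 7.18 FPKM in mutant livers (log2 fold change -0.24, standard error 0.073, adjusted p = 0.0324). The muscle form Pfkm had 3.54, 3.09 and 3.63 FPKM in WT and 3.31, 3.69 and 3.43 FPKM in mutant livers, with overlap (log2 fold change 0.020, standard error 0.071, adjusted p = 0.827). Pfkl missed the adjusted p, at 0.0514 to 0.0972, without the expression filter, with the replicate block, or with any 1 of 5 livers left out (each WT liver and mutant replicates 1 and 3). With median-ratio and quantile scaling it was further from 0, at -0.41 and -0.49 (adjusted p = 0.00483 and 0.00219). Pfkp, the platelet form, had 0.309, 0.304 and 0.256 FPKM in WT and 0.481, 0.526 and 0.464 FPKM in mutant livers. All Pfkp values of the mutant livers were the higher ones, but its mean lay under 0.5 FPKM and it was not tested.

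Bifunctional kinases make the sugar bisphosphate that activates phosphofructokinase. The members Pfkfb1, Pfkfb2 and Pfkfb3 were higher in every mutant liver than in any WT liver, whereas Pfkfb4, which is no member, averaged under 0.5 FPKM, was not tested and overlapped, with 0.394, 0.318 and 0.301 FPKM in WT and 0.628, 0.506 and 0.388 FPKM in mutant livers. Pfkfb1, the liver form, had 4.84, 4.95 and 4.51 FPKM in WT and 7.33, 6.95 and 7.13 FPKM in mutant livers (log2 fold change 0.50, standard error 0.053, adjusted p = 0.000432). Pfkfb3, the inducible form, had 0.120, 0.684 and 0.0881 FPKM in WT and 1.55, 1.48 and 1.47 FPKM in mutant livers. WT replicate 2 stood apart from the other WT livers. The means differed 5.04-fold, and the log2(FPKM + 1) scale gave less (log2 fold change 0.98, standard error 0.18, adjusted p = 0.00421). Past both thresholds were the log2 fold changes of 2.32 with a pseudocount of 0.1 (adjusted p = 0.0133) and 1.18 without WT replicate 2. Pfkfb2 was at 0.524 ± 0.0151 FPKM in WT and 0.773 ± 0.0584 FPKM in mutant livers, and its log2 fold change of 0.22 (adjusted p = 0.0196) missed the adjusted p, at 0.0577 to 0.0825, with median-ratio or quantile scaling, with the replicate block, and without WT replicate 3 or mutant replicate 1. Of the aldolases, Aldoa had 30.6, 22.1 and 31.3 FPKM in WT and 43.2, 32.4 and 33.1 FPKM in mutant livers, without passing the test (log2 fold change 0.36, standard error 0.17, adjusted p = 0.113). The second Aldoa row (ENSMUSG00000114515) was listed at 0.0838 FPKM in WT replicate 3 and at 0 in the other 5 livers. Aldoc, the brain form, had 2.68, 3.71 and 2.93 FPKM in WT and 5.13, 4.50 and 5.42 FPKM in mutant livers (log2 fold change 0.56, standard error 0.11, adjusted p = 0.0067).

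Genes of lactate and pyruvate use differed in both directions. Ldha, the lactate dehydrogenase subunit of muscle and liver, was among the highest members, with 388, 405 and 391 FPKM in WT and 250.4, 246 and 243 FPKM in mutant livers. It was lower in all mutant livers, without reaching 2-fold (log2 fold change -0.68, standard error 0.029, adjusted p = 8.92e-06). Ldhb, the heart subunit, had 4.83, 4.93 and 4.90 FPKM in WT and 3.33, 2.95 and 4.05 FPKM in mutant livers (log2 fold change -0.41, standard error 0.096, adjusted p = 0.0119). Pdha1 (ENSMUSG00000031299, chrX:160122209-160138413), the X-linked subunit of pyruvate dehydrogenase, which commits pyruvate to oxidation, had 13.7, 13.7 and 14.1 FPKM in WT and 28.5, 31.2 and 28.0 FPKM in mutant livers. Its mean was 2.11-fold higher (log2 fold change 1.03, standard error 0.052, adjusted p = 1.83e-05), just past the threshold, and it fell to 0.84 and 0.73 with median-ratio and quantile scaling and to 0.98 without mutant replicate 2.

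Of the 4 kinases that switch pyruvate dehydrogenase off, Pdk1, Pdk2 and Pdk4 are members. Pdk2 and Pdk4 passed the adjusted p downward and Pdk1 did not pass. Over all tested genes 57.0% passed it in either direction. Pdk4, induced in fasting, had 9.59, 8.73 and 9.07 FPKM in WT and 4.49, 3.98 and 3.91 FPKM in mutant livers. Its means differed 2.21-fold and its log2 fold change was just inside the threshold (log2 fold change -0.98, standard error 0.065, adjusted p = 5.63e-05), at -1.15 and -1.21 with median-ratio and quantile scaling, -1.13 with 0.1 FPKM added before the log, and -1.01 or -1.03 when WT replicate 2 or mutant replicate 1 was left out. Pdk2, the main form in liver, had 16.3, 15.4 and 15.1 FPKM in WT and 10.8, 11.2 and 11.8 FPKM in mutant livers (log2 fold change -0.44, standard error 0.052, adjusted p = 0.000723). Pdk1 was at 3.00 ± 0.345 FPKM in WT and 3.13 ± 0.259 FPKM in mutant livers, with overlap and an adjusted p of 0.672. Pdk3, from the list of further genes, was added after its values were seen. It had 1.53, 1.15 and 1.09 FPKM in WT and 0.520, 0.557 and 0.457 FPKM in mutant livers (log2 fold change -0.57, standard error 0.091, adjusted p = 0.00245).

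Plain ratios of the FPKM of isoenzymes within a liver cancel any factor that acts on all genes of that liver alike. Of 17 pairs, 12 did not overlap between the groups in plain ratios and 13 did not on the log2(FPKM + 1) scale, which damps low genes and does not cancel such a factor fully. Among all tested genes, taken singly, 66.0% did not overlap. The share among pairs of other genes was not counted, so whether these counts are particular to isoenzymes was not tested. The scales differed for 3 pairs, since Pck2 over Pck1 and Ldhb over Ldha overlapped only in plain ratios and Fbp2 over Fbp1 only on the log2(FPKM + 1) scale. With 3 livers against 3, the smallest p of a two-sided exact permutation test, run on the log2(FPKM + 1) ratios, is 0.1, and after adjustment over the 17 pairs the smallest was 0.131, so no pair could pass 0.05. On the log2(FPKM + 1) scale the largest shift was in phosphorylase, at -2.15, mutant minus WT. In plain ratios Pygb stood at 0.242, 0.248 and 0.228 times Pygl in WT and 0.0386, 0.0369 and 0.0469 times in mutant livers. Turned around, Pygl exceeded Pygb 4.19 ± 0.180-fold (SD, n = 3) in WT and 24.8 ± 3.04-fold in mutant livers. The plain ratio of Fbp2 to Fbp1 showed a larger relative difference, from 0.00161, 0.000638 and 0.000922 in WT to 6.72e-05, 0 and 0 in mutant livers, with Fbp2 near or at 0.

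G6pc3 was 0.0252, 0.0215 and 0.0251 times G6pc in WT and 0.108, 0.0922 and 0.0936 times in mutant livers, a shift of 2.02 on the log2(FPKM + 1) scale, as for the shifts that follow, while G6pc3 itself overlapped between the groups. Gys1 over Gys2 shifted by 1.55 in the same way. Ppp1r3c exceeded Ppp1r3b in every WT liver, with ratios of 1.96, 2.13 and 2.00, and was below it in every mutant liver, with ratios of 0.661, 0.692 and 0.716. Hk3 over Hk1 shifted by 1.27 and Hk2 over Hk1 by 0.81, while Eno3 over Eno1 shifted by -1.28.

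Pck2 over Pck1 shifted by 0.81 on the log2(FPKM + 1) scale but only by 0.17 with a pseudocount of 0.1, and the plain ratios were 0.00230 ± 0.000150 (SD, n = 3) in WT and 0.00231 ± 0.000396 in mutant livers. In plain FPKM, the mean of the mitochondrial form was 2.72-fold and that of the cytosolic form 2.73-fold lower. Smaller shifts without overlap on either scale were those of Pdk4 over Pdk2, at -0.55, Pfkfb3 over Pfkfb1, at 0.48, Pfkp over Pfkl, at 0.45, and Pfkm over Pfkl, at 0.26. Ldhb over Ldha, at 0.26, had plain ratios of 0.0125, 0.0122 and 0.0125 in WT and 0.0133, 0.0120 and 0.0167 in mutant livers. The pairs that overlapped on both scales were Pkm over Pklr, at -0.086, Slc2a1 over Slc2a2, and Aldoc over Aldoa. For pyruvate kinase, Pkm stood at 0.365, 0.409 and 0.376 times Pklr in WT and 0.343, 0.404 and 0.353 times in mutant livers.

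**Figure D5:**
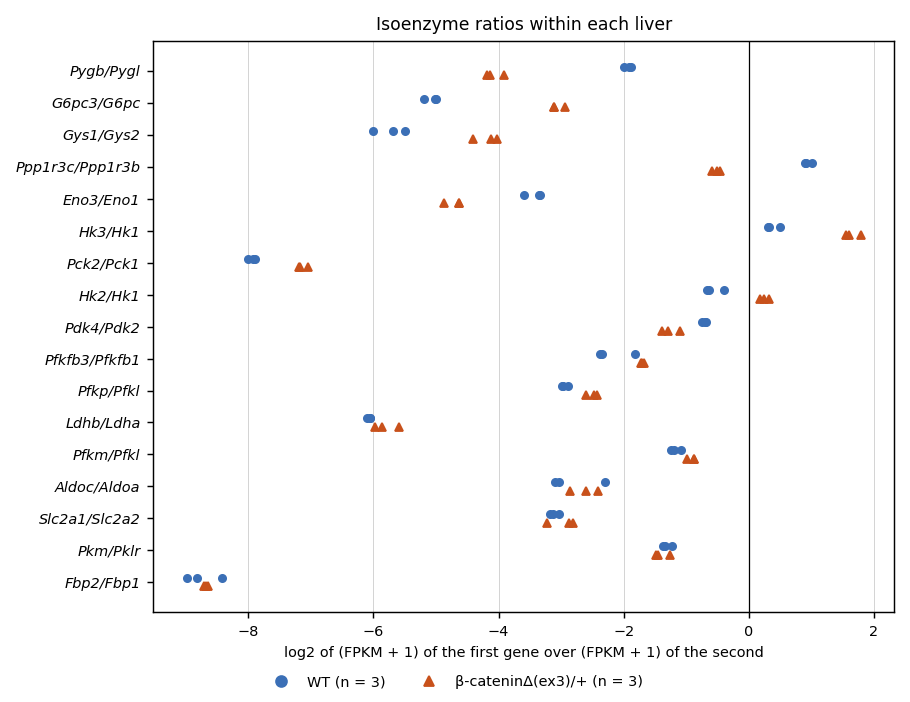
Log2 of the ratio of (FPKM + 1) between the genes of 17 isoenzyme pairs in each liver, ordered by the size of the shift, with WT livers as circles and mutant livers as triangles. On this scale the groups separate in 13 pairs, most widely for Pygb over Pygl, and only Ppp1r3c over Ppp1r3b and Hk2 over Hk1 cross the line of equal levels.

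Of a list of 103 further genes of sugar metabolism and its hormones and regulators, 102 were found and 77 were tested. Of these, 56 passed the adjusted p at any fold change, 36 up and 20 down, which is 72.7% beside 57.0% of all tested genes. Past both thresholds 4 were higher and 4 lower, 10.4% beside 12.7% of all tested genes. With median-ratio and with quantile scaling 3 were higher and 6 lower: Foxo3 dropped below 2-fold, at 0.96 and 0.95, and the mitochondrial pyruvate carrier genes Mpc1, at -1.14 and -1.24, and Mpc2, at -1.03 and -1.13, passed it. Ldhd, the mitochondrial D-lactate dehydrogenase, had 2.78, 2.01 and 2.42 FPKM in WT and 18.9, 19.2 and 17.4 FPKM in mutant livers (log2 fold change 2.52, standard error 0.094, adjusted p = 4.88e-06). Me1, cytosolic malic enzyme and another source of NADPH, had 4.90, 4.95 and 4.48 FPKM in WT and 26.3, 26.2 and 25.0 FPKM in mutant livers (log2 fold change 2.22, standard error 0.052, adjusted p = 6.91e-07). Mlxipl, the carbohydrate-sensing transcription factor ChREBP, had 19.4, 18.8 and 18.98 FPKM in WT and 50.3, 55.0 and 54.6 FPKM in mutant livers (log2 fold change 1.43, standard error 0.047, adjusted p = 2.79e-06). Foxo3, a forkhead factor restrained by insulin signalling, was the other higher gene, at 1.34 ± 0.235 FPKM in WT and 3.99 ± 0.0378 FPKM in mutant livers (log2 fold change 1.09, standard error 0.085, adjusted p = 0.000109).

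Galk1, galactokinase, showed the largest fall, from 189.6, 166 and 192 FPKM in WT to 28.7, 24.4 and 25.6 FPKM in mutant livers (log2 fold change -2.75, standard error 0.082, adjusted p = 1.9e-06). Slc16a1, the monocarboxylate transporter that carries lactate and pyruvate, had 31.9, 32.3 and 32.3 FPKM in WT and 10.5, 10.2 and 10.9 FPKM in mutant livers (log2 fold change -1.52, standard error 0.041, adjusted p = 1.2e-06), a direction shared with Ldha. Irs2, the insulin receptor substrate, had 4.75, 4.95 and 5.06 FPKM in WT and 1.69, 1.56 and 1.35 FPKM in mutant livers (log2 fold change -1.23, standard error 0.069, adjusted p = 2.8e-05). Sik1, a kinase that restrains gluconeogenic transcription, was lower as well, at 7.69 ± 0.360 FPKM in WT and 3.04 ± 0.0417 FPKM in mutant livers (log2 fold change -1.11, standard error 0.052, adjusted p = 1.32e-05). None of the 8, which were picked for passing both thresholds, overlapped between the groups. Of all tested genes 66.0% did not overlap.

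The member promoters were searched for 5 motifs, as exact matches on both strands in the 250 bases before the start. RefSeq held windows for 50 of the 52 member names, 75 windows in all, with none for Gys2 or Ppp1r3b. The TCF/LEF letters CTTTGAT stood in the windows of G6pc, Taldo1, Pklr and Ppp1r3c, 4 of 75 member windows beside 3.21% of 32851 windows of that length in the whole table. In G6pc they lie 113 to 107 bases before the start. The E-box CACGTG, bound by many helix-loop-helix factors, stood in 10 of 75 member windows beside 6.02% of all windows, and in none of the 10 called members with a window. The hypoxia core ACGTG, which overlaps the E-box, stood in 25 of 75 beside 16.6% of all windows, and Pygb holds it 163 to 159 bases before the start on the opposite strand. The cAMP element TGACGTCA was found in the window of Ldha alone, beside 1.55% of all windows, and the forkhead letters TGTTTAC in that of Aldoc alone, beside 3.17%. Gbe1 and Pck1 held no exact match to any of the 5 in the 250 bases. The letters TTACGTCA in the Pck1 window are close to the cAMP element but did not count as a match. These are matches of letters and were not tested.

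The livers of a group resembled each other closely for these genes. Over the 43 member rows with a mean of at least 1 FPKM, the median coefficient of variation between livers was 3.45% in WT and 4.75% in mutant livers, beside 8.18% and 7.57% over the 10969 genes with that minimum. The sets were not matched for level above the minimum. Gapdh, with 0.54, had the largest standard error of the tested members. All members together took 0.634% to 0.645% of the summed FPKM of each WT liver and 0.447% to 0.463% of that of each mutant liver, and Fbp1 alone made up 26.5% of the members' sum in WT and 19.5% in mutant livers.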

How the data were processed

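Liver RNA was measured in 3 WT and 3 β-cateninΔ(ex3)/+ livers, grouped by genotype label. The authors deposited FPKM, 1 value for each gene and liver, in 1 table whose columns were matched to livers by name, with 0 columns unused. The submitters' processing notes name cutadapt 1.9, HISAT2 2.0.4, StringTie 1.3.4d, DESeq2 and edgeR, without roles or order, and the study's methods name DESeq2 for its own tests. The genome build and annotation are not given in the sources used here, and 28911 of 31950 genes have the same start and end in GENCODE M21. FPKM are not counts, so no count test was run, and exact zeros are described as listed at 0. Depth was estimated from steps between low FPKM of single-exon genes, if 1 step is 1 read. The estimates were 49.0 to 49.6 M reads per WT library and 34.0 to 39.2 M per mutant library. Those of the WT libraries lie near the upper end of the range searched. Only 35.0% to 47.4% of the low values fell on a step (4% would by chance), which leaves the depth uncertain, and no counting intervals are given.

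From the FPKM, log2(FPKM + 1) was fitted with limma 3.58.1 (intensity trend, R 4.3.3) over the 13243 genes with a mean of at least 0.5 FPKM, with Benjamini-Hochberg adjustment over all of them. Calls needed an adjusted p under 0.05 and at least a 2-fold change, the thresholds of the study's methods. Fold changes on this scale understate those of low genes. The limma p-values weigh the difference between the groups against the spread between livers within a group, moderated over genes. They cannot tell genotype from sex or from the state shown by the young-liver genes. Isoenzyme ratios were compared by two-sided exact permutation tests. The fit was also run on simulated data in which most genes were unchanged. In the real data 57.0% of tested genes passed the adjusted p, so no result here rests on that run. Near-identical copies were found with blastn against GENCODE M21 transcripts. Other steps used scipy 1.17.1, numpy 2.4.6, pandas 2.3.3 and, for the plots, matplotlib 3.10.9 under Python 3.11.15. Promoters are from RefSeq (GRCm38.p6), and gene coordinates are those of the deposited table, which for the 4 genes whose promoters are shown match GENCODE M21.

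The members, the gene lists and the tests were chosen with earlier results of these data known. Values in every liver are given for members past both thresholds, with at least 100 FPKM in a group, in an isoenzyme pair or failing the 0.5 FPKM filter, and promoters for the 4 members with the largest change that have one. Of the further genes, those past both thresholds are named. Pfkfb4, Pdk3, Mpc1, Mpc2, Rpe, H6pd, Shpk, Pgls and Rpia were added after their values were seen. Livers with the same replicate number were not paired, since their deviations from the group means had Pearson's r of 0.027, 0.021 and -0.0054. The alternatives were a pseudocount of 0.1, no filter, a mean of at least 1 FPKM, median-ratio and quantile scaling, eBayes without the trend, a replicate block, each liver left out in turn, other thresholds and, chosen after the data had been seen, copies added to the member. Protein sequences were not compared and ChIP-seq is not analysed here.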

Additional observations from a re-analysis of the deposited data

How the results depend on the processing

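The fitted log2 fold changes of the members gave 652 values under the alternatives, of which 609 had the direction and call of the reported value, 16 gained a call, 9 lost one and 18 turned sign. Of the 12 called members, 7 were called under every alternative that used the 2-fold threshold. Members called higher and lower numbered 5 and 8 with median-ratio scaling, 3 and 8 with quantile normalization, 22 and 14 at any fold change, and 2 and 1 at an absolute log2 fold change of at least 1.5. For the further pathway genes these counts were 3 and 6 with either scaling, 10 and 8 with a pseudocount of 0.1, 36 and 20 at any fold change, and 2 and 2 at 1.5, and for all genes 1706 and 999 with that pseudocount, 4952 and 2599 at any fold change, and 521 and 238 at 1.5. Leaving out 1 liver at a time gave 7 to 9 members higher and 4 to 5 lower, 4 to 5 further pathway genes in each direction, and 1064 to 1103 genes higher and 583 to 604 lower among all genes. The replicate block gave 8 members higher and 4 lower, 4 and 4 further pathway genes, and 1075 and 598 of all genes, and moved Pfkl and Pfkfb2 past an adjusted p of 0.05 without touching a 2-fold call of a member. Sign changes came in members near 0. With median-ratio and quantile scaling the log2 fold changes were -0.18 and -0.28 for Gpi1, -0.13 and -0.16 for Pfkm and -0.099 and -0.12 for Pdk1, and quantile scaling gave -0.097 for Slc37a4. With 1 liver left out they ranged from -0.061 to 0.0078 for Gckr, -0.015 to 0.019 for Gpi1, -0.035 to 0.055 for Pfkm, -0.41 to 0.57 for Gapdh, -0.027 to 0.085 for Pdk1 and -0.10 to 0.012 for G6pc3, and copies added to Gapdh gave 0.49. Of 136 isoenzyme ratio values, 124 stayed within 1 SD of the reported one, and 10 of the 12 that did not came from the pseudocount of 0.1, under which Fbp2 over Fbp1 was -2.10 instead of 0.058. The cause of these changes was not tested. With 3 livers a group no exact test can go below 0.1, and the depth behind a low FPKM is uncertain.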
